A study of Mus musculus with 4 samples.

Results

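Tnfrsf4, Tnfrsf9, Tnfrsf18, Cd27, Tnfrsf1a, Tnfrsf1b, Tnfrsf25 and Fas encode receptors of the tumour necrosis factor receptor superfamily carried by lymphocytes. These 8 genes were chosen by name, and all 8 were found among the 55450 genes of the deposited table, 1 row each. They were measured by RNA sequencing in natural killer (NK) cells and in T cells sorted from tumours. The tumours grew from CT26, a colon carcinoma line of the BALB/c mouse, which was injected under the skin of syngeneic BALB/c mice at 500000 live cells in 200 uL. The 4 libraries are 2 of intra-tumoral NK cells and 2 of intra-tumoral T cells, and no other treatment, genotype or age is stated. Both cell types came as pool 1, from 4 mice, and pool 2, from 6 mice. The p-values therefore rest on the spread between 2 pools per cell type, which limma combines with the spread of other genes. All mice bore tumours, so no NK or T cells from tumour-free tissue stand beside these. Which surface markers were used in the sort is not given in the labels.

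Receptors of this family bind trimeric ligands of the tumour necrosis factor family, which cluster them on the cell surface. Costimulatory members such as OX40, 4-1BB, GITR and CD27 recruit TRAF adaptor proteins and switch on NF-kB, which favours survival, division and cytokine release after antigen or activating receptor signals. Members with a death domain, here TNFR1, DR3 and Fas, can also recruit adaptors that lead to caspase activation. On T cells OX40, 4-1BB and GITR are known as receptors induced by activation, and regulatory T cells carry them at high levels.

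Depth was low, between 2067728 and 2893240 reads in genes per library, and ribosomal RNA genes took 36.9% and 38.8% of it in NK pools 1 and 2 and 52.4% and 42.7% in T pools 1 and 2. Levels are in normalized CPM, reads per 1000000 after TMM scaling, not divided by gene length, and a single read was worth 0.354 to 0.551 of this unit. Each log2 fold change is the NK mean minus the T mean of log2(value + 1), a scale that makes the change of low genes look smaller than it is. Both labels were matched by their defining markers. The 5 T cell markers (Cd3e, Cd3g, Trac, Cd8a and Cd4) summed to 59.4 and 41.8 in the NK libraries versus 1855 and 1592 in the T libraries, and the 4 NK markers (Ncr1, Klrb1c, Eomes and Tyrobp) to 1478 and 1300 in the NK libraries versus 43.0 and 38.3 in the T libraries. Macrophage markers were also present, with 6 genes summing to 704 and 157 in the NK libraries versus 204 and 21.6 in the T libraries. Of these 6, limma called 0 towards NK cells, against 1.24% of genes tested. It called 4 in a fit that takes the pool as a replicate block, against 4.26%. At an unadjusted p under 0.05 without the block, limma had 5, against 6.51% of genes. The B cell markers Cd79a and Ms4a1 were at 0 in all 4 libraries, and the 3 B cell markers summed to 0.709 in T pool 2. The endothelial Cdh5 was also at 0, so the endothelial sum was that of Pecam1 alone. It stood at 146 and 248 in the NK libraries versus 63.3 and 91.4 in the T libraries. The 4 dendritic cell markers summed to 27.7 and 37.6 versus 7.71 and 0.709, and the 4 fibroblast markers to 8.95 and 13.8 versus 1.10 and 2.83. Among the dendritic cell markers 1 passed towards NK cells in limma, as did 1 among the fibroblast markers, against 1.24% of genes, and 0 endothelial ones did. Pecam1 passed with the replicate block in limma and with DESeq2, against 4.26% and 1.81% of genes.

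On chromosome 4 lie 5 of the members, Cd27 and Tnfrsf1a lie on chromosome 6, and Fas on chromosome 19 (GRCm38, GENCODE M21). Tnfrsf4 (ENSMUSG00000029075.6, 156013843 to 156016612, plus strand) and Tnfrsf18 (ENSMUSG00000041954.18, 156026164 to 156028895, plus strand) are immediate neighbours among the protein-coding genes of chromosome 4, with 9551 bases between them. Both had higher values in T pool 1 than in T pool 2, so the bases upstream of these neighbours are shown. Each run ends upstream of the earliest annotated start of its gene in either RefSeq or GENCODE, and capitals mark the sequence GGAAA, the core bound by NFAT, on either strand.
Tnfrsf4, chr4:156013445-156013594, plus strand: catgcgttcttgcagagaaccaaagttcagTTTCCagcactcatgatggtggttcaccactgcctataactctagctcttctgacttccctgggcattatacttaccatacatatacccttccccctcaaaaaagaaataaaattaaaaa
Tnfrsf18, chr4:156026072-156026163, plus strand: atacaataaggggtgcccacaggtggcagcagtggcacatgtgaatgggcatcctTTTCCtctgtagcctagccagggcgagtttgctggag
The last stretch comes from a start of Tnfrsf9, the member with the highest level per length in the NK cells. Capitals mark the kB consensus, the site of NF-kB, which matched in overlapping positions, and the GGAAA core on the minus strand lies inside it. The stretch lies within an exon of the gene annotated in GENCODE.
Tnfrsf9, chr4:150927946-150927975, plus strand: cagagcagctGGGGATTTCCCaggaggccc

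In RefSeq's promoter table (GRCm38.p6), which covers 300 bases around each start, the 8 members had 10 windows. The kB consensus was found on either strand in 1 of the 10, the downstream window of Tnfrsf9, against 4.51% of all 32851 windows. The AP-1 sequence TGANTCA was found in 2, the same Tnfrsf9 window and that of Fas, against 7.81% of all windows. The RUNX sequence TGTGGT was found in 2, against 16.8%, and GGAAA in 8, against 61.3%. These matches are letters in a window and were not measured as binding.

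OX40 (Tnfrsf4) was close to absent from the NK libraries and was higher in T cells, while 4-1BB (Tnfrsf9) was abundant in both. Of the 8 members, 1 was higher in T cells past the threshold, Tnfrsf4, against 1.09% of 12126 genes tested (limma, Benjamini-Hochberg adjusted p under 0.05). Higher in NK cells were 0 of 8, against 1.24% of genes tested (limma), and 0 at an unadjusted p under 0.05, against 6.51% of genes. EdgeR, DESeq2 and both fits with the replicate block also called 0 in that direction, against 1.42%, 1.81%, 4.26% (limma with the block) and 3.79% (edgeR with the block) of genes. At an unadjusted p under 0.05, limma had 5 members higher in T cells, against 6.30% of genes. In a fit that takes the pool as a replicate block, those 5, Tnfrsf4, Tnfrsf18, Cd27, Tnfrsf25 and Fas, were past the threshold in limma and in edgeR, against 3.97% and 3.57% of genes tested. That fit leaves 1 residual degree of freedom, so a gene's own spread hardly enters its p-values. Without the block, edgeR on the recovered reads called 2, Tnfrsf4 and Tnfrsf25, against 1.31% of genes, and DESeq2 called 4, Tnfrsf4, Tnfrsf18, Cd27 and Tnfrsf25, against 1.82%. Limma called 2 with a pseudocount of 2 (Tnfrsf4 and Tnfrsf25, against 1.20% of genes) or with no filter on low values (Tnfrsf4 and Cd27, against 0.956%), and 0 without a trend in the spread (against 0.165%).

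Both NK values were on one side of both T values in 7 of the 8 members, Tnfrsf9 being the exception, and in 43.4% of genes tested. For 5 of the 7 the T values were above, against 21.3% of genes, and for Tnfrsf1a and Tnfrsf1b the NK values were above, against 22.1%. All 8 passed the filter (mean over libraries at or above 1), but Tnfrsf4 and Tnfrsf25 passed it through the T libraries. Summed over the 8 members, the levels came to 460 and 389 normalized CPM in NK pools 1 and 2 and to 928 and 411 in T pools 1 and 2, so T pool 1 stood above the other libraries. In this bulk RNA, fewer cells that carry a receptor and less RNA per cell cannot be told apart.

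**Figure D1:**
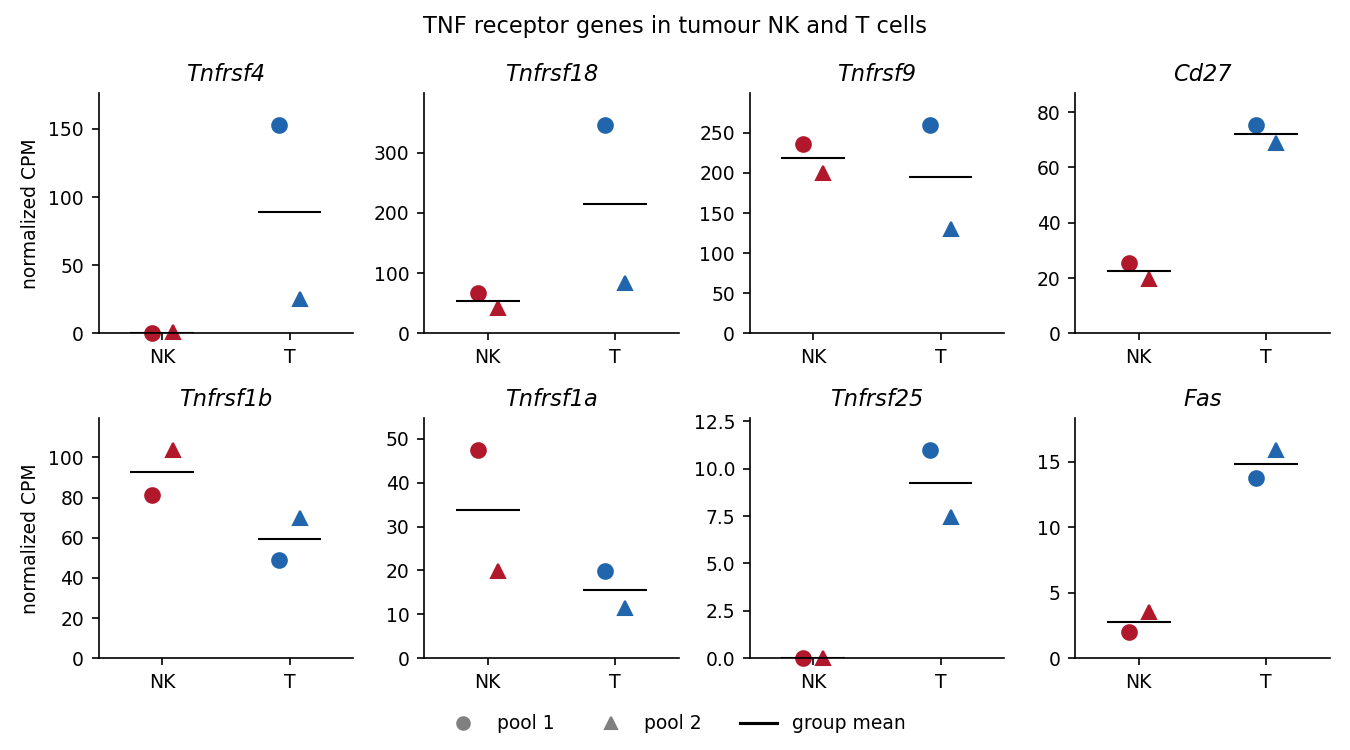
Normalized CPM of each receptor gene in the 2 NK (left) and 2 T (right) libraries, with circles for pool 1, triangles for pool 2 and a line at the group mean; each panel has its own axis from 0. Tnfrsf4 and Tnfrsf25 sit at or near 0 in NK cells, Tnfrsf9 overlaps between the cell types, and Tnfrsf1a and Tnfrsf1b are the members whose NK values both lie above the T values.

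Among the TRAF-coupled costimulatory receptors, Tnfrsf4 showed the largest difference of the 8. OX40 binds OX40 ligand and prolongs T cell responses. It stood at 0 and 0.709 normalized CPM in NK pools 1 and 2, against 153 and 25.2 in T pools 1 and 2. Both T libraries were far above both NK libraries, and the T libraries differed strongly from each other. The means were 0.355 ± 0.501 in NK cells and 89.1 ± 90.5 in T cells (SD, n = 2 each). The log2 fold change was -5.60 (SE 0.82, limma adjusted p = 0.00577), from 2 reads over the NK pools and 349 over the T pools. As a ratio of reads T cells were 199-fold higher, with an exact 95% counting interval of 54.6 to 1646 that covers counting error only. This call was lost in limma with any 1 library left out (adjusted p = 0.305 to 0.800), as were the calls of all other genes. Without each library in turn, edgeR kept it past the threshold, at adjusted p = 8.37e-11 without NK pool 2 and 0.0017 without T pool 1.

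Tnfrsf18, the neighbour of Tnfrsf4, encodes GITR, a costimulatory receptor that regulatory T cells carry at high levels. Its level was 67.5 and 41.5 normalized CPM in the NK libraries versus 346 and 82.9 in the T libraries. Both NK libraries were below both T libraries, but NK pool 1 and T pool 2 were close. The means were 54.5 ± 18.4 in NK cells and 215 ± 186 in T cells (SD, n = 2 each). Its log2 fold change was -1.66 (SE 0.57, 95% interval -2.93 to -0.39, limma adjusted p = 0.222). With the replicate block the limma adjusted p was 6.16e-06, in a fit where the gene's own spread hardly enters. The NK minus T difference was -2.34 in pool 1 and -0.98 in pool 2. Without T pool 1 the log2 fold change was -0.64, and without T pool 2 it was -2.69. Exons of Tnfrsf18 overlap Gm16008 on the opposite strand, and without a stated strand setting their reads cannot be told apart.

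Tnfrsf9 encodes 4-1BB, an activation-induced receptor of both NK cells and T cells and a target of agonist antibodies. It stood at 236 and 200 normalized CPM in the NK libraries versus 260 and 130 in the T libraries. The NK values lay between the 2 T values. The log2 fold change was 0.24 (SE 0.37, limma adjusted p = 0.843), with a 95% interval of -0.58 to 1.06, and the means were 218 ± 26.0 in NK cells and 195 ± 91.8 in T cells (SD, n = 2 each). Within pool 1 the NK value was below the T value (log2 difference -0.14), and within pool 2 it was above it (0.61).

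Cd27, the receptor for CD70 that marks less mature NK cells and naive and memory T cells, differed with little spread between pools. It stood at 25.6 and 19.5 normalized CPM in the NK libraries versus 75.4 and 68.7 in the T libraries. The groups did not overlap, and each cell type's pools were close to one another, with means of 22.6 ± 4.33 in NK cells and 72.1 ± 4.74 in T cells (SD, n = 2 each). The log2 fold change was -1.64 (SE 0.39, limma adjusted p = 0.0620), and with the replicate block the limma adjusted p was 4.39e-04. The ratio of T to NK reads was 3.19 (exact 95% counting interval 2.58 to 3.97), with 118 NK and 331 T reads. A microRNA gene, Mir8113, overlaps an exon of Cd27 on the same strand.

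Tnfrsf1b encodes TNFR2, which binds membrane-bound TNF and signals through TRAF2 without a death domain. Its level was 81.4 and 104 normalized CPM in the NK libraries versus 49.0 and 69.8 in the T libraries. Both NK values were above both T values, although NK pool 1 and T pool 2 were near each other. The log2 fold change of 0.64 (SE 0.36, 95% interval -0.16 to 1.45) did not pass (limma adjusted p = 0.526, and 0.286 with the replicate block).

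Among the receptors with a death domain, Tnfrsf25 and Fas had lower values in NK cells and Tnfrsf1a had higher ones. In limma without the block 0 of these 3 passed, against 1.24% of genes towards NK and 1.09% towards T cells. At an unadjusted p under 0.05 there were 2 towards T cells, Tnfrsf25 and Fas, against 6.30% of genes. EdgeR called 1 and DESeq2 1, Tnfrsf25 in both, against 1.31% and 1.82%. With the block Tnfrsf25 and Fas passed in limma and in edgeR, against 3.97% and 3.57%. Tnfrsf25 encodes DR3, the receptor for TL1A. It had 0 reads in both NK libraries, against 11.01 and 7.44 normalized CPM in T cells, or 20 and 21 reads. Taking 3 reads over both NK libraries (0.568 normalized CPM) as the limit, the T level was at least 15.555-fold higher. The exact 95% lower counting limit of the T to NK ratio, which also covers the error of the T reads, was 12.1. The log2 fold change was -3.33 (SE 0.77, limma adjusted p = 0.0530). The adjusted p was 0.00415 with the replicate block in limma and 0.0382 with edgeR. Over all the alternatives, its adjusted p ran between 0.00347 and 0.785.

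Fas encodes CD95, the death receptor bound by Fas ligand. It stood at 2.03 and 3.55 normalized CPM in NK cells, from 5 and 10 reads, against 13.8 and 15.9 in T cells, from 25 and 45 reads. The groups lay apart and the reads were few. Its log2 fold change was -2.09 (SE 0.62, 95% interval -3.47 to -0.71, limma adjusted p = 0.141), with a T to NK ratio of reads of 5.31 (exact 95% counting interval 3.01 to 9.99). With the replicate block the limma adjusted p was 0.0342.

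Tnfrsf1a encodes TNFR1, the main receptor for soluble TNF, which most cell types carry. Its level was 47.6 and 19.9 normalized CPM in the NK libraries versus 19.8 and 11.3 in the T libraries. NK pool 2 and T pool 1 were almost equal. Its log2 fold change was 0.99 (SE 0.54, 95% interval -0.21 to 2.19, limma adjusted p = 0.506). The 6 macrophage markers summed to 704 and 157 in NK pools 1 and 2 and to 204 and 21.6 in T pools 1 and 2. Their part in the level of Tnfrsf1a was not tested.

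**Figure D2:**
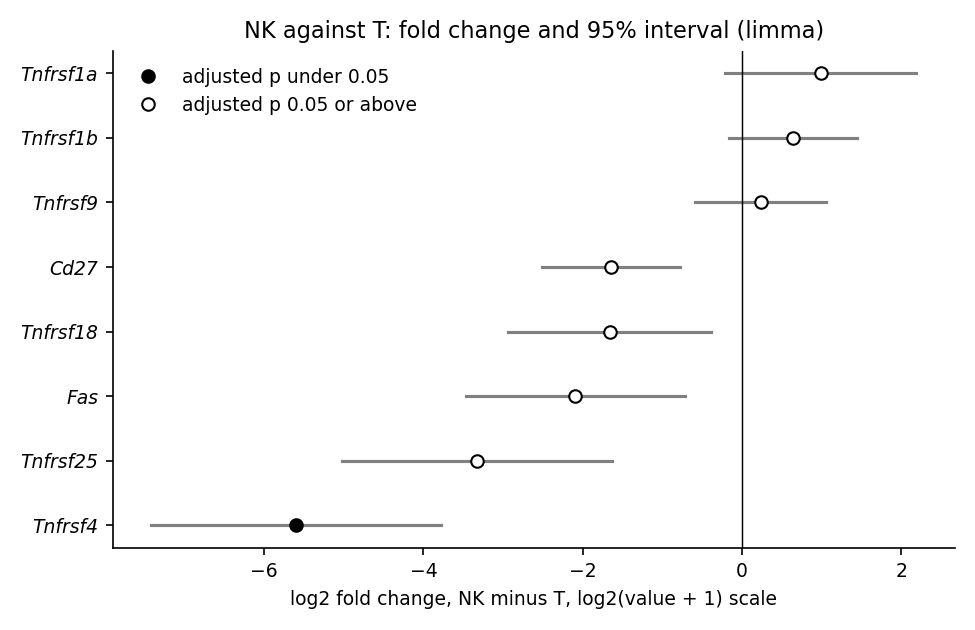
Log2 fold change of each receptor gene, NK minus T in log2(value + 1), with its 95% interval from limma; the filled point passed the adjusted threshold and open points did not. Tnfrsf4 is the filled point at -5.60, the intervals of Tnfrsf25, Fas, Tnfrsf18 and Cd27 lie below 0, and those of Tnfrsf9, Tnfrsf1b and Tnfrsf1a include 0.

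Within each replicate number, which the design text ties to a pool of mice, 7 of the 8 members had the same direction in both pools, against 60.9% of genes tested. Tnfrsf4 differed by -7.27 in pool 1 and by -3.94 in pool 2 (NK minus T, log2(value + 1) scale). In reads, T cells had 278 and NK cells 0 in pool 1, a ratio with a lower exact 95% counting limit of 101, and T cells were 35.5-fold higher in pool 2 (9.47 to 299). Tnfrsf18 differed by -2.34 in pool 1 and by -0.98 in pool 2, so its gap was also wider in pool 1. Cd27 differed by -1.52 and -1.77, Tnfrsf25 by -3.59 and -3.08, and Fas by -2.28 and -1.90. Tnfrsf1b differed by 0.72 and 0.57, and Tnfrsf1a by 1.22 and 0.76. The gaps of these 5 were closer between the pools than those of Tnfrsf4 and Tnfrsf18.

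**Figure D3:**
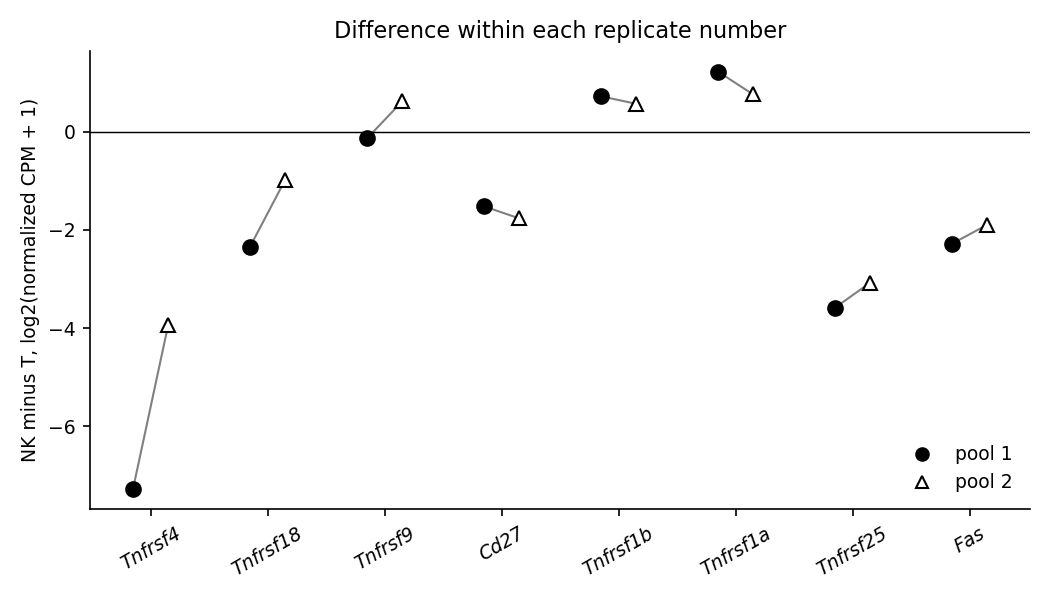
Difference of each receptor gene within each replicate number, NK minus T in log2(normalized CPM + 1), with filled circles for pool 1 and open triangles for pool 2. Tnfrsf4 and Tnfrsf18 lie lower in pool 1 (-7.27 and -2.34) than in pool 2 (-3.94 and -0.98), and Tnfrsf9 lies on either side of 0.

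Between the T pools, the neighbours Tnfrsf4 and Tnfrsf18 had the widest gaps of the 8 members. Tnfrsf4 was 6.08-fold higher in T pool 1 than in T pool 2 (exact 95% counting interval 4.67 to 8.01). Its log2 gap between T pools was wider than that of 97.2% of genes tested. Tnfrsf18 was 4.18-fold higher in T pool 1 (3.59 to 4.87), a gap wider than that of 93.4% of genes. Tnfrsf9 was 2.00-fold higher in T pool 1 (1.74 to 2.297), while the interval of Cd27 included 1 (ratio 1.10, interval 0.875 to 1.37) and Tnfrsf1b was lower in T pool 1 (0.702, interval 0.540 to 0.906). The receptors with a death domain had T pool ratios of 0.863 for Fas, 1.48 for Tnfrsf25 and 1.75 for Tnfrsf1a. These intervals cover counting error in 1 library per pool and are no test between pools.

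Regulatory T cell markers also differed between the T pools. Foxp3, the factor that defines regulatory T cells, stood at 0 and 0.709 normalized CPM in the NK libraries versus 63.9 and 12.0 in the T libraries. It was 5.30-fold higher in T pool 1 than in T pool 2 (exact 95% counting interval 3.59 to 8.02). Il2ra was 3.44-fold (2.80 to 4.24) and Ikzf2 was 2.08-fold higher (1.83 to 2.38), while Ctla4 (1.34, interval 1.07 to 1.68) and Izumo1r (1.16, interval 0.777 to 1.72) differed less. The 5 markers summed to 67.5 and 77.6 in the NK libraries versus 634 and 286 in the T libraries. In limma, 4 of the 5 were higher in T cells, against 1.09% of genes tested. With the replicate block in limma 5 were, against 3.97%. Foxp3 was above the filter on low values only through the T libraries. Markers of other cells differed between the T pools as well. Cd4 was 1.77-fold higher in T pool 1 (1.52 to 2.06), and Cd8a was lower there (0.556, interval 0.472 to 0.653). The 6 macrophage markers summed to 204 in T pool 1 and 21.6 in T pool 2, with Lyz2 10.5-fold higher in pool 1 (7.72 to 14.6). The 3 neutrophil markers summed to 20.3 and 20.9 in NK pools 1 and 2 and to 91.4 and 12.0 in T pools 1 and 2, with S100a9 11.1-fold higher in T pool 1 (6.53 to 20.03). The part of any of these markers in the levels of Tnfrsf4, Tnfrsf18 and Tnfrsf9 was not tested.

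**Figure D4:**
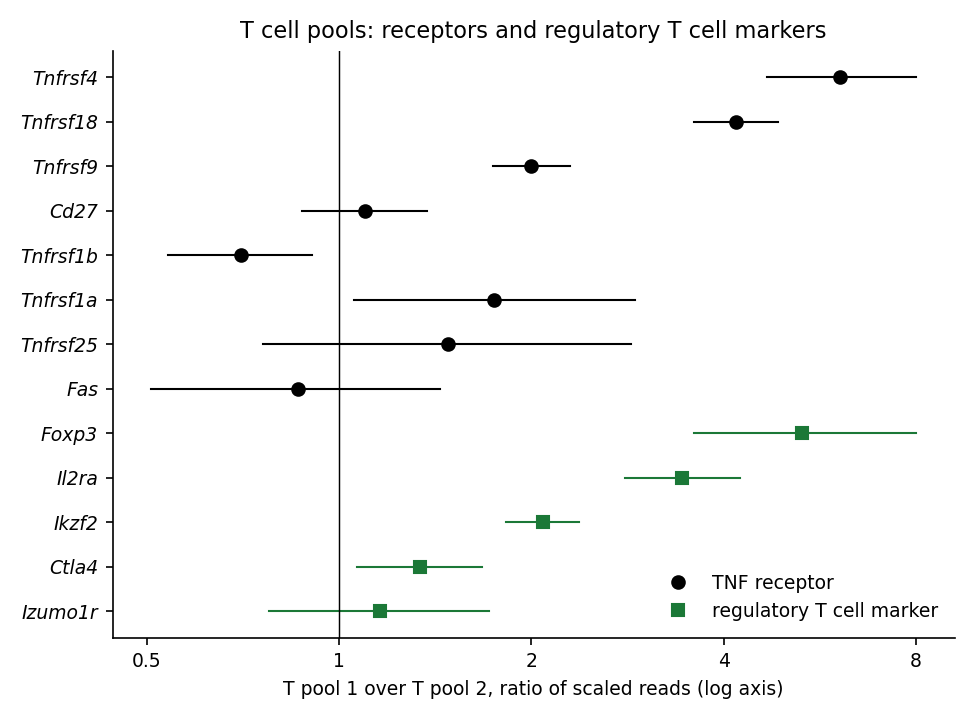
Ratio of T pool 1 to T pool 2 for the receptor genes (black circles) and 5 regulatory T cell markers (green squares) on a log axis, with exact 95% counting intervals. Tnfrsf4 (6.08), Foxp3 (5.30) and Tnfrsf18 (4.18) have the highest ratios, and Cd27, Fas, Tnfrsf25 and Izumo1r have intervals that include 1.

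To compare the genes with each other, levels were divided by the length of the union of annotated exons. In NK cells Tnfrsf9 led, with 86.8 and 73.3 normalized CPM per kb, clear of Tnfrsf18 at 44.3 and 27.2. Tnfrsf1b followed at 21.3 and 27.2 per kb, reaching about the lower value of Tnfrsf18. Tnfrsf1a (18.4 and 7.66) and Cd27 (11.01 and 8.38) overlapped. Fas (0.986 and 1.72), Tnfrsf4 (0 and 0.519) and Tnfrsf25 (0 in both) came last. In T cells Tnfrsf18 had the highest mean, at 227 and 54.4 per kb, but its range overlapped that of Tnfrsf9 (95.5 and 47.8), and the range of Tnfrsf4 (112 and 18.4) overlapped both. Cd27 was steady at 32.4 and 29.5 per kb, within the range of Tnfrsf4 and above Tnfrsf1b (12.8 and 18.3). Fas (6.68 and 7.73), Tnfrsf1a (7.65 and 4.38) and Tnfrsf25 (4.84 and 3.27) were lowest, each overlapping the next. The order of the means was the same in both cell types with the longest transcript as the length.

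**Figure D5:**
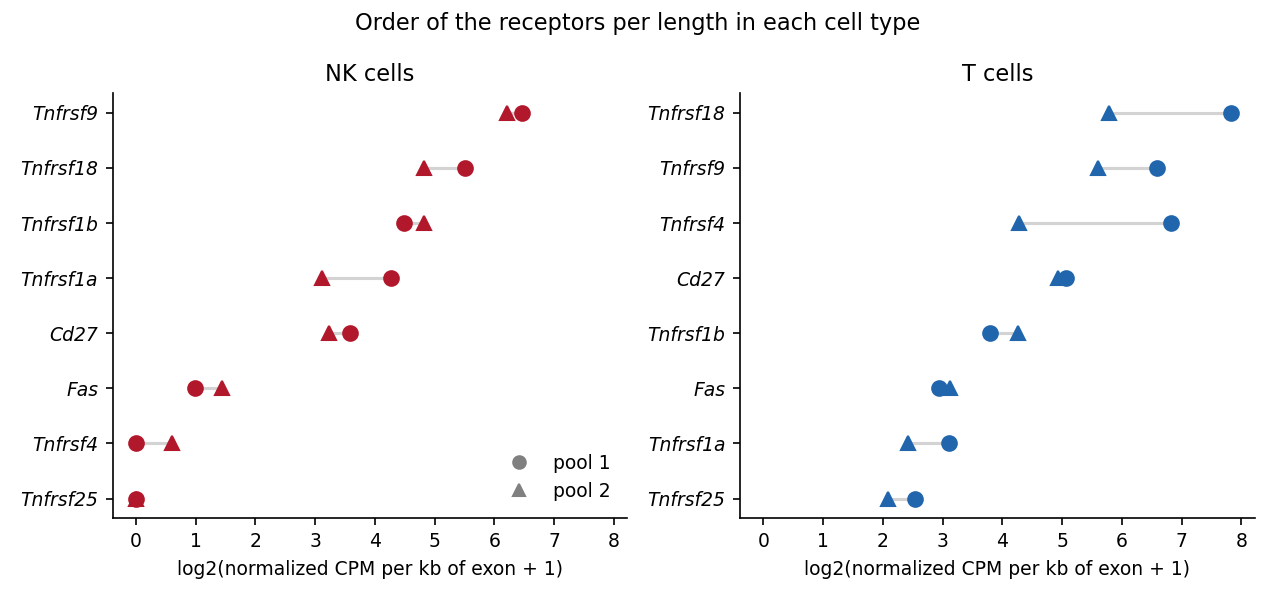
Level of each receptor gene per kb of exon, as log2(normalized CPM per kb + 1), in NK cells (left) and T cells (right), ordered by the mean in that cell type, with circles for pool 1 and triangles for pool 2. Tnfrsf9 leads in NK cells at 86.8 and 73.3 per kb, and Tnfrsf18, Tnfrsf9 and Tnfrsf4 overlap at the top in T cells.

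Among 6593 genes averaging at least 10 normalized CPM, those 3 closest to Tnfrsf4 in their profile over the 4 libraries (Euclidean distance of centred log2 values) were chosen. Traj18, a joining segment of the T cell receptor alpha locus (distance 0.813), had 0 in both NK libraries against 89.2 and 26.6 in T cells. Cd40lg, the CD40 ligand of helper T cells (distance 0.821), had 0 in both NK libraries against 78.2 and 23.0 in T cells. Neb, which encodes nebulin (distance 1.09), stood at 1.63 and 0.709 in the NK libraries versus 166 and 35.8 in the T libraries. With 4 libraries, such likeness rests on few values.

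The other receptors of the superfamily were mostly low. Of 20 listed, 14 were tested, with 0 called towards NK cells and 1 towards T cells in limma, against 1.24% and 1.09% of genes. EdgeR and DESeq2 also called 0 and 1, against 1.42% and 1.31% in edgeR and 1.81% and 1.82% in DESeq2. At an unadjusted p under 0.05 limma had 2 and 3, against 6.51% and 6.30% of genes. With the replicate block limma called 2 towards NK cells, Tnfrsf11a and Ltbr, against 4.26% of genes. It called 2 towards T cells, Tnfrsf13b and Tnfrsf26, against 3.97%. Tnfrsf11a and Ltbr were above the filter on low values only through the NK libraries. The median log2 fold change was -0.25, against 0.02 over all genes tested. Tnfrsf13b, which encodes TACI, known as a receptor for BAFF and APRIL on B cells, was the 1 called. It stood at 2.03 and 1.42 normalized CPM in the NK libraries versus 23.1 and 18.1 in the T libraries (log2 fold change -2.99, SE 0.62, limma adjusted p = 0.0329). Cd79a and Ms4a1, markers of B cells, were at 0 in both T libraries, and the 3 B cell markers summed to 0.709 in T pool 2.

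Among the ligands of the 8 receptors, Tnfsf15 and Tnfsf18, which encode the ligands of DR3 and GITR, had 0 reads in all 4 libraries. Such a count allows up to 3 reads over each cell type, or 0.568 normalized CPM in NK cells and 0.647 in T cells. Of 4 ligands tested, limma called 0 in either direction, against 1.24% of genes towards NK cells and 1.09% towards T cells. At an unadjusted p under 0.05 limma had 1 and 1, against 6.51% and 6.30%. With the replicate block limma called 1 and 1, Fasl and Lta, against 4.26% and 3.97% of genes. DESeq2 called the same 1 and 1, against 1.81% and 1.82%. EdgeR called 1 and 0, Fasl, against 1.42% and 1.31%. Fasl, the ligand of Fas, stood at 97.2 and 51.8 in the NK libraries versus 8.26 and 22.0 in the T libraries (log2 fold change 2.303, SE 0.53, limma adjusted p = 0.0546; edgeR adjusted p = 0.0466; 7.97e-07 in limma with the replicate block). Tnf, the ligand of TNFR1 and TNFR2, stood at 51.3 and 23.8 in the NK libraries versus 87.6 and 20.9 in the T libraries, and was higher in pool 1 of both cell types (limma adjusted p = 0.891). Tnfsf4, the ligand of OX40, stood at 6.10 and 8.15 in NK pools 1 and 2 and at 1.65 and 3.19 in T pools 1 and 2, from 38 and 12 reads in all (log2 fold change 1.27, SE 0.69, limma adjusted p = 0.504). Cd70 and Tnfsf9, the ligands of CD27 and 4-1BB, were below the filter, at 2 and 4 reads over the NK pools versus 4 and 2 over the T pools. Tnfsf4 and these low ligands, and the genes named beside the counts of other fits, were named after their values were seen. Lta, which encodes lymphotoxin alpha, stood at 2.44 and 0.355 in NK pools 1 and 2 and at 35.8 and 4.25 in T pools 1 and 2.

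The lists downstream of the receptors are set against 1.24% of all genes called towards NK cells and 1.09% towards T cells in limma. At these shares, 0 calls in a list this short is near the background. At an unadjusted p under 0.05 in limma the shares were 6.51% and 6.30%. They were 1.42% and 1.31% in edgeR, 1.81% and 1.82% in DESeq2, and 4.26% and 3.97% with the replicate block in limma. Of 12 TRAF and receptor-proximal adaptors, 0 passed in limma, 0 in edgeR and 0 in DESeq2 (0 towards NK and 2 towards T cells at limma p under 0.05 before adjustment; 0 and 1, Birc2, with the replicate block). The most abundant were Traf1, an NF-kB-induced adaptor, at 63.0 and 121 in the NK libraries versus 115 and 65.2 in the T libraries, and Traf3ip3, a TRAF3-interacting protein, at 51.3 and 53.5 against 78.2 and 65.2. Of 10 genes of death domain signalling, 0 passed in limma and 0 in edgeR (1 and 0, Bid, in DESeq2; 1 and 0 at an unadjusted p under 0.05; 2, with Bid among them, and 0 with the replicate block). Bid, which links caspase-8 to mitochondria, stood at 42.3 and 26.9 in NK pools 1 and 2 and at 6.06 and 8.504 in T pools 1 and 2. Casp8, the caspase recruited to death receptors, stood at 83.4 and 51.4 in the NK libraries versus 84.8 and 45.0 in the T libraries (limma adjusted p = 0.962). Of 16 NF-kB factors and inhibitors, 0 passed in limma and 0 in edgeR (0 and 1, Tnfaip3, in DESeq2; 0 and 5 at an unadjusted p under 0.05; 0 and 2, Rel and Tnfaip3, with the replicate block). Nfkbia, the inhibitor IkB alpha and an NF-kB target, stood at 1161 and 1382 in the NK libraries versus 1877 and 2452 in the T libraries (log2 fold change -0.76, limma adjusted p = 0.298). Tnfaip3, the ubiquitin-editing enzyme A20, stood at 85.8 and 115 in the NK libraries versus 149 and 449 in the T libraries (-1.37, adjusted p = 0.217, and 1.15e-04 with the replicate block).

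Costimulatory receptors outside the superfamily are set beside these as a comparison. Of 8 genes, 5 were higher in T cells in limma, 5 in edgeR and 5 in DESeq2, against 1.09%, 1.31% and 1.82% of all genes, and 0 in NK cells by any of these tools, nor at limma's unadjusted 0.05, with a median log2 fold change of -2.13. Cd5, Slamf1 and Icos had the largest changes, and Slamf6 and Cd28 were the others called. Icos, a receptor of the CD28 family, stood at 19.1 and 21.6 in the NK libraries versus 436 and 146 in the T libraries (log2 fold change -3.57, SE 0.49; adjusted p = 0.00417, limma). The T-lineage glycoprotein gene Cd5 stood at 2.44 and 1.06 against 95.8 and 55.6, and Slamf1 at 2.03 and 1.42 against 110 and 43.6. The values of all 3 in T pool 1 were above those in T pool 2, as for Tnfrsf4 and Tnfrsf18. Slamf6, at 101 in T pool 1 and 49.6 in T pool 2, did likewise, but Cd28, at 273 and 344, went the other way.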

How the data were processed

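RNA from sorted NK and T cells was sequenced as 2 libraries per cell type. Per the submitters' processing notes, the build was GRCm38.p6, and STAR 2.7.0f, Bowtie2 2.3.4.1, FastQC and limma were used for steps that are not described. No source used here names the counter, its strand setting or the normalization. Per the file headers, each library has 1 column of normalized signal, as deposited by the authors. Every non-zero value was a whole multiple of its column's smallest (tolerance 0.001 reads, 100.0% of values), which gave whole reads. The implied scaling factors, 1.103, 1.058, 0.878 and 0.975 for NK pools 1 and 2 and T pools 1 and 2, equalled TMM factors recomputed from those reads to 3 digits.

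The highest-mean row per symbol was kept, and 27 symbols turned into dates, and 741 blank ones (0.0167% to 0.0197% of reads), were taken from a gene name table where it had them. The fit used limma 3.58.1 in R 4.3.3 (lmFit, eBayes with a trend) on log2(value + 1), over genes with a mean of at least 1 and with 2 residual degrees of freedom. EdgeR 4.0.16 and DESeq2 1.42.0 ran on the recovered reads. In a test on simulated data, limma recovered 62.0% of genes changed 4-fold and 98.0% of those changed 8-fold (12060 genes tested). The simulation gave all genes the same relative spread beyond counting noise and no pool effect, and changed only genes above a set level. Its recovery cannot be read as that of these data. Intervals of read ratios are exact binomial. The members, lists and named genes (up to 3 called per list and direction, otherwise the 2 most abundant) were chosen with earlier results of these data known. A gene that this rule named is left out of the text.

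The replicate numbers were taken as pairs because each number stands, in the series' design text, for 1 pool of mice, read as the source of both cell types. The gap between NK pools correlated with that between T pools at 0.161 across genes. The block leaves 1 residual degree of freedom, so a gene's own spread hardly enters its p-values. NK pools differed beyond counting noise, as did T pools (chi-square per degree of freedom 10.3 and 19.3).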

Additional observations from a re-analysis of the deposited data

How the results depend on the processing

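Tnfrsf4 and the other members except Tnfrsf9 kept their direction under each alternative that gave them a value (Tnfrsf25 was removed by the filter of 5). Tnfrsf9 turned to -0.26 in limma without T replicate 2 (-0.28 with edgeR), and ran up to 0.74 without T replicate 1. Members higher in T cells numbered 1 in the main test, 2 with edgeR, with a pseudocount of 2 or with no filter on low values, 4 with DESeq2, 0 with eBayes without a trend, 5 with the replicate block in limma or edgeR, and 0 without any 1 library in limma or 3, 2, 1 and 4 in edgeR (without NK replicate 1 or 2, then T replicate 1 or 2). The cause of these shifts was not tested. Genes higher in NK cells numbered 18 without a trend and 517 and 459 with the replicate block in limma and edgeR. Genes higher in T cells numbered 221 with DESeq2, 84 with scaling to the total, 20 without a trend, and 482 and 433 with the block. Without 1 library 0 genes passed in limma, with 752 to 1760 under 0.05 before adjustment; edgeR, in the same order of libraries, called 159, 223, 259 and 267 towards NK cells and 164, 205, 211 and 232 towards T cells. Related-list genes higher in NK cells numbered 0 in the main test, 1 with edgeR, without ribosomal RNA genes, with a pseudocount of 2, with no filter or with a filter of 5, 2 with DESeq2, 5 with the block and 0 to 2 without 1 library. Those higher in T cells numbered 1 without a trend, 12 with the block and 0 to 8 without 1 library. Leaving out libraries in edgeR was added after seeing the data. Scaling to the total moved the median of all genes by 0.20 (log2) towards NK cells, and Tnfrsf9 within pool 1 then stood at 0.19. Low reads limit Tnfrsf25, Fas and Tnfrsf4 in NK cells.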

Other observations

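The genes given here were chosen after their values were seen. Tnfrsf26, a mouse receptor of the family, stood at 14.2 and 76.9 normalized CPM in NK pools 1 and 2, against 45.7 and 167 in T pools 1 and 2, so pool 2 had the higher value in each cell type. Tnfrsf13c, the BAFF receptor, also had its higher values in pool 2 and stood at 10.2 and 39.7 in the NK libraries versus 8.26 and 14.9 in the T libraries. Among the receptors with more reads in NK cells were Tnfrsf11a, which encodes RANK, with 34 reads over the NK pools and 0 over the T pools, and Ltbr, the lymphotoxin beta receptor, with 46 and 1. Cd40 had 37 and 5, of which all 37 NK reads lay in pool 2, and Tnfrsf21, Tnfrsf11b and Tnfrsf12a had 10 and 2, 9 and 0, and 6 and 1. Tnfrsf11a and Ltbr were above the filter on low values only through the NK libraries. Neither Tnfrsf11a nor Ltbr passed without the block (limma adjusted p = 0.109 and 0.147), and both passed with it (0.0268 and 0.0271). Both are also known from myeloid cells, and the macrophage markers summed to 704 and 157 in the NK libraries versus 204 and 21.6 in the T libraries, and their part was not tested. Tnfrsf19 had 0 reads over the NK pools and 22 over the T pools (limma adjusted p = 0.169), and was above the filter only through the T libraries.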
